A study of Homo sapiens with 4 samples.

Results

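The family of miR-130 and miR-301 was followed through small RNA sequencing of H661 cells, a lung cancer line derived from a large cell carcinoma. Members were the rows named miR-130a, miR-130b, miR-301a, miR-301b or miR-454, both arms, and 9 of the 826 mature microRNAs (miRNAs) in the count table met that rule. Whole cultures of H661 cells received 2.5 µM entinostat in 2 libraries. This drug inhibits class I histone deacetylases, enzymes that remove acetyl groups from histones and other proteins. The comparison group, also 2 libraries, received the solvent dimethyl sulfoxide (DMSO). Both treatments lasted 8 h, and the question was whether family members differ in level between them. The labels do not tell whether replicates are separate cultures, so any p-value reflects library-to-library spread that may be technical.

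A miRNA hairpin is cut into a 5p arm and a 3p arm, of which usually a single arm, the guide, is kept in an Argonaute protein. Bases 2 to 8 of the guide, the seed, pair with target messenger RNAs and lower their translation and stability. The family is grouped by a seed that its 3p arms share, and those 3p arms are treated as the guides in most of the literature. The family has been linked to hypoxia and to growth of tumours.

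The mature sequences are shown because the family is defined by its seed and because reads of near-identical members can be hard to assign. RefSeq sequences (GRCh38.p14) were matched by name for 7 of the 9 members, miR-130a-3p and miR-301b-5p being the others. They are written 5′ to 3′, with the seed in capitals. The 3p arms with a sequence were:
miR-130b-3p: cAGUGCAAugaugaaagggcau
miR-301a-3p: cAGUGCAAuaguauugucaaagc
miR-301b-3p: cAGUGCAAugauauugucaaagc
miR-454-3p: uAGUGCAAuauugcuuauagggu
The 5p arms of the same hairpins were:
miR-130b-5p: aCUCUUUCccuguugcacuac
miR-301a-5p: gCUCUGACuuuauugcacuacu
miR-454-5p: aCCCUAUCaauauugucucugc

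All 4 of these 3p arms carried the seed AGUGCAA, and they were the only rows with that seed among the 729 rows of the count table that had a RefSeq sequence, 0.549% of them. The 5p arms shown had 3 different seeds, as their capitals show, and shared no seed with the 3p arms or with each other. Between miR-301a-3p and miR-301b-3p, 21 of 23 positions were identical. Counted from the 5′ end, with the base of miR-301a-3p first, the differences were A10G and G11A. The 3p arms of miR-130b and miR-301b shared their first 12 bases and parted at position 13. How reads common to such near-identical sequences were counted is not stated in the sources used here, so the levels of the miR-301a and miR-301b 3p arms are uncertain singly. No mature sequence was matched for miR-130a-3p, but the MIR130A hairpin holds a stretch close to miR-130b-3p in sequence. The levels of miR-130a-3p and miR-130b-3p, their order and the arm balance of miR-130b may thus carry the same uncertainty, which was not tested.

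The 5p arms of miR-130b and miR-301a also held the letters UUGCACU, the full complement of the family seed, starting at position 13. This motif was searched as UUGCACU on the miRNA strand alone, over all 729 sequences, and 5 rows (0.686%) held it. The other 3 were miR-25-3p, miR-92a-3p and miR-92b-3p, in which it starts at position 3 and overlaps most of their seed AUUGCAC. In miR-130b-5p and miR-301a-5p it lay outside the seed, toward the 3′ end of the arm. The motif was not found in miR-454-5p. A match describes letters only.

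The hairpins show where both arms lie, since the balance between the arms is described below. Sequence of the precursor is in lower case and the mature arms, 5p first and 3p second, are in capitals. Intervals are from RefSeq, with the strand named in the text that follows.
MIR130B, chr22:21653304-21653385: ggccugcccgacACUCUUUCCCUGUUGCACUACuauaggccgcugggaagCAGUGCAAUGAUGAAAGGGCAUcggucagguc
MIR301A, chr17:59151136-59151221: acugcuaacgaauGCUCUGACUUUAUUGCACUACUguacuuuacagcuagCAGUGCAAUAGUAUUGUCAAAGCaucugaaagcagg
MIR454, chr17:59137758-59137872: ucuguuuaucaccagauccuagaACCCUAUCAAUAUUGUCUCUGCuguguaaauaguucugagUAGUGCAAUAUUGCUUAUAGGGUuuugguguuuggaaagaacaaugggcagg

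The 5 hairpins lie in 3 places. MIR130B is on the plus strand of chromosome 22, 245 bases downstream of MIR301B (21652981 to 21653058). In GENCODE release 29 (GRCh38) both overlap the non-coding gene AP000553.1 on the same strand, MIR301B in an intron and MIR130B at an exon of at least 1 transcript. MIR454 and MIR301A, 13263 bases apart on the minus strand of chromosome 17, lie in introns of SKA2, which encodes a protein of the spindle and kinetochore complex. MIR130A (chromosome 11, 57641198 to 57641286, plus strand) lies in an intron of the non-coding gene AP000662.1. Whether the authors used either annotation is not stated in the sources used here.

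Totals ran from 547875 to 753104 miRNA counts in the entinostat libraries and from 561485 to 938559 in the DMSO libraries, so a count of 0 allowed 3.98 to 5.48 CPM with entinostat and 3.20 to 5.34 CPM with DMSO. Levels below are CPM, counts per 1e+06 counts of the tested rows of a library, after trimmed mean of M-values (TMM) scaling. A read covers a whole mature miRNA, so levels were not divided by length, but the adapter ligation used in such kits recovers sequences unequally. Epithelial markers were scarce. Of the 7 on the list, 4 had a row in the count table. These summed to 77.3 and 59.3 CPM with entinostat against 56.7 and 41.0 CPM with DMSO, and miR-205-5p had no count in DMSO replicate 1. Of the mesenchymal markers 5 of 6 were listed, and they summed to 112.3 and 116.0 CPM with entinostat against 70.6 and 90.8 CPM with DMSO, and miR-9-5p, 1 of 2 neuronal markers, had 1331 and 1262 CPM with entinostat against 1100.3 and 1188 CPM with DMSO. Blood (miR-486-5p, 1 of 6), endothelial (miR-126-3p) and muscle markers (2 of 5) overlapped between treatments, and miR-122-5p of liver was at 0 except in 1 DMSO library (5.35 CPM). The part of these markers in the results below was not tested.

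The family was a minor part of the H661 miRNA pool, and a single 5p arm made up most of it. All 9 members together held 0.203% of the counts in entinostat replicate 1 (exact Clopper-Pearson 95% interval 0.191 to 0.215%) and 0.190% in replicate 2 (0.181 to 0.201%). In the DMSO libraries they held 0.204% (0.195 to 0.214%) and 0.226% (0.214 to 0.239%). Such intervals cover counting error only, since PCR copies cannot be told from separate molecules here. The entinostat libraries were both below the DMSO libraries, with a mean difference of -0.0187 percentage points, and the lower DMSO library lay inside the counting interval of entinostat replicate 1. The size of that difference rests on the DMSO libraries, being -0.00765 points without DMSO replicate 2 and -0.0298 points without DMSO replicate 1. Of the family's scaled counts, miR-130b-5p took 63.8% and 62.9% with entinostat and 64.3% and 63.7% with DMSO.

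The most abundant member was hsa-miR-130b-5p, formerly written as the star strand of miR-130b, at rank 86 of the 826 miRNAs. It had 1305 and 1189 CPM with entinostat, against 1319.7 and 1441 CPM with DMSO. Both entinostat libraries lay below both DMSO libraries, though entinostat replicate 1 and DMSO replicate 1 were close. Its nearest neighbours in level were miR-17-5p and miR-140-3p just above and miR-9-5p and miR-22-3p just below.

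The most abundant 3p arm was miR-130a-3p, reported in the literature as pro-angiogenic and hypoxia-linked, at rank 154. It had 386.5 and 303.2 CPM with entinostat, against 354.3 and 407.9 CPM with DMSO, and the groups overlapped. Next came hsa-miR-130b-3p, at rank 204, an arm treated as the guide in the literature. It had 143.6 and 181.9 CPM with entinostat, against 144.5 and 158.5 CPM with DMSO. Its groups overlapped too, and entinostat replicate 2 was the highest of the 4.

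The pair of SKA2 introns gave lower levels. Rank 250 was held by miR-454-5p, with 71.8 and 71.2 CPM with entinostat, against 82.4 and 105.1 CPM with DMSO, so that both entinostat libraries were the lower ones. For miR-301a-5p, at rank 257, the levels were 68.1 and 69.9 CPM with entinostat, against 70.6 and 83.7 CPM with DMSO, a gap of under 1 CPM between the nearest libraries. At rank 290, miR-454-3p had 53.4 and 55.4 CPM with entinostat, against 49.2 and 49.9 CPM with DMSO. Here both entinostat libraries were the higher ones.

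The remaining 3 members were near the limit of counting. There were 5 and 9 counts of miR-301b-5p with entinostat, against 10 and 8 with DMSO. For miR-301b-3p there were 4 and 4 counts with entinostat, against 17 and 2 with DMSO. In unscaled CPM the exact 95% intervals were 1.99 to 18.7 and 1.45 to 13.6 with entinostat. In DMSO replicate 1 the interval began at 10.6, and in DMSO replicate 2 it was 0.431 to 12.9. DMSO replicate 1 was the highest library in this row, but its interval met that of each other library. The scarcest member was miR-301a-3p, often described as an oncogenic guide, with 0 and 2 counts with entinostat, against 2 and 0 with DMSO. None of these 3 passed the low-count filter, and no fold change is given for them. No member had a count of exactly 1 in any library. Whether such counts were set to 0 before deposit was not tested, so a 0 here could stand for 1 count.

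**Figure D1:**
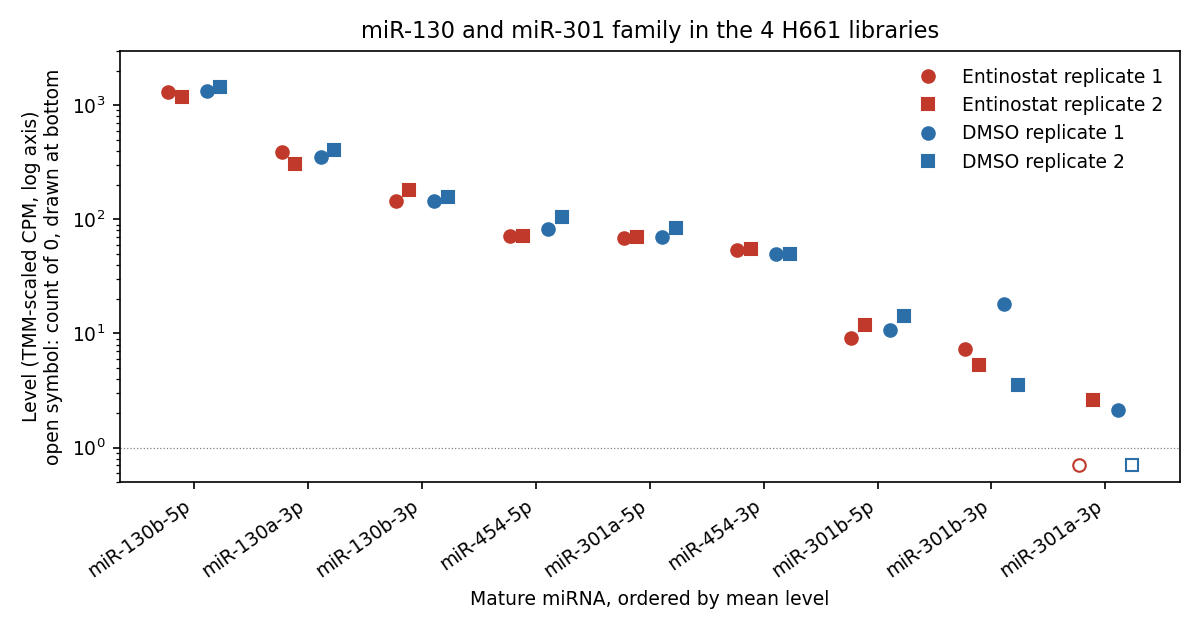
Level of each of the 9 members (x axis, ordered by mean) in TMM-scaled CPM on a log axis. Each symbol is 1 library, entinostat in red left of DMSO in blue, circles for replicate 1 and squares for replicate 2, and open symbols mark a count of 0. The members span from miR-130b-5p at 1189 to 1441 CPM down to miR-301a-3p with no count in 2 libraries, and DMSO replicate 1 is the highest library for miR-301b-3p.

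Down this order, most steps were larger than the spread over the 4 libraries. Every library of miR-130b-5p lay above every library of miR-130a-3p, with a ratio of means of 3.62. The next steps, to miR-130b-3p (2.31) and to miR-454-5p (1.90), also separated every library. Levels of miR-454-5p and miR-301a-5p overlapped, as did those of miR-301b-5p and miR-301b-3p. Every library of miR-301a-5p lay above every library of miR-454-3p, by 1.41 in the means.

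Neighbouring hairpins differed in how evenly they were represented. Both arms of miR-130b summed to 787 and 1040 counts with entinostat and to 1368 and 898 with DMSO, against 9, 13, 27 and 10 counts for miR-301b in the same libraries. The ratio over all libraries was 69.4, for hairpins 245 bases apart. The SKA2 pair was far less uneven, with 1.84 and 1.75 counts of miR-454 for each of miR-301a with entinostat and 1.81 and 1.85 with DMSO. These ratios overlapped between the treatments.

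In 3 of the 4 hairpins that had both arms in the table, the arm without the family seed was the more abundant in every library. The 3p arm of miR-130b took 9.91% of the counts of its hairpin in entinostat replicate 1 (exact 95% interval 7.91 to 12.2%) and 13.3% in replicate 2 (11.3 to 15.5%). In DMSO libraries it took 9.87% (8.34 to 11.6%) and 9.91% (8.03 to 12.1%). Summed over the libraries there were 3653 counts of the 5p arm and 440 of the 3p arm, a ratio of 8.30. In miR-301a the 3p arm had 0 of 37 and 2 of 55 counts with entinostat, against 2 of 68 and 0 of 47 with DMSO, 1.93% of all 207. The 3p share of miR-454 was 42.6% (30.7 to 55.2%) and 43.8% (33.6 to 54.3%) with entinostat, against 37.4% (28.8 to 46.6%) and 32.2% (22.6 to 43.1%) with DMSO, the entinostat intervals reaching past 50%. Whether ligation recovers the arms of a hairpin unequally was not tested.

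The miR-301b hairpin was the exception. Its 3p arm held 44.4% (13.7 to 78.8%) and 30.8% (9.09 to 61.4%) with entinostat, against 63.0% (42.4 to 80.6%) and 20.0% (2.52 to 55.6%) with DMSO. These rest on 9 to 27 counts a library, and no order of the arms can be read from them. The fifth hairpin, miR-130a, is represented by its 3p arm, and miR-130a-5p had no row in the count table.

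A shift of arm use with entinostat was not resolved. In miR-454 both entinostat libraries had a higher 3p share than both DMSO libraries, 43.2 ± 0.780% against 34.8 ± 3.69% (SD, n = 2). The difference of 8.41 percentage points had a two-sided exact permutation p of 0.333, the lowest that 2 libraries against 2 allow, and the counting intervals overlapped. In miR-130b the means were 11.6 ± 2.37% with entinostat and 9.89 ± 0.0300% with DMSO (SD, n = 2, two-sided exact permutation p = 0.333). That difference of 1.70 points was 0.0214 points without entinostat replicate 2, so it rests on that library. Among the 146 hairpins with 100 or more counts, 15.8% had a higher 3p share in both entinostat libraries and 17.8% a lower one.

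**Figure D2:**
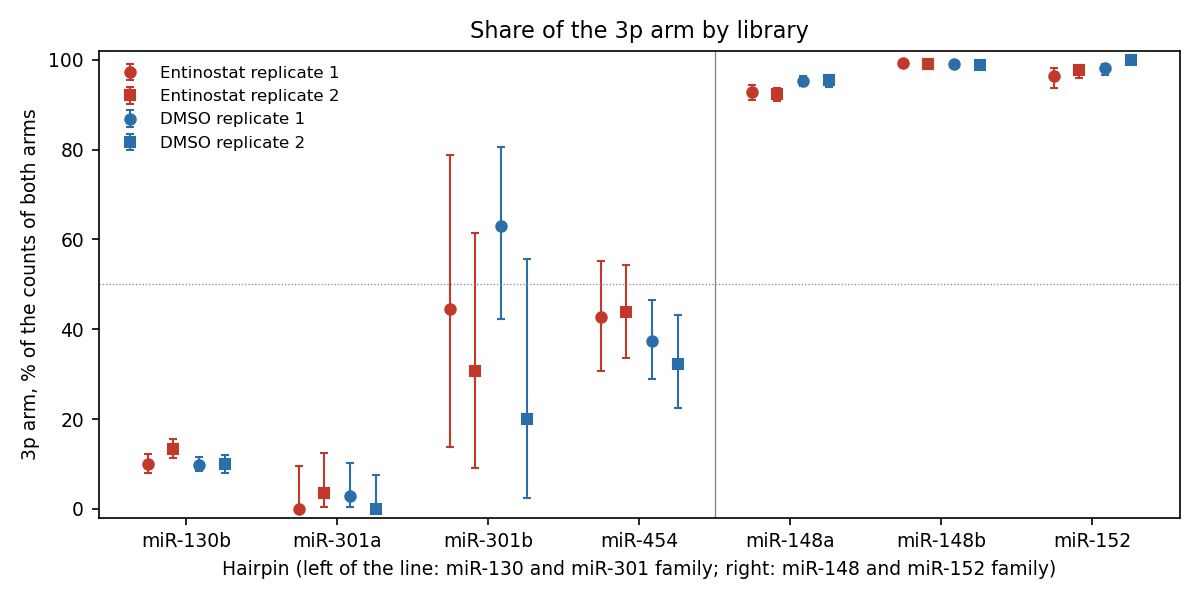
Share of the 3p arm in the counts of both arms (y axis, %) for each hairpin and library, with exact 95% counting intervals as bars, entinostat in red left of DMSO in blue. The miR-130b shares lie between 9.87 and 13.3%, those of miR-454 between 32.2 and 43.8%, and those of miR-148a, miR-148b and miR-152 at 92.4% or above.

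More 5p than 3p counts was not unusual in these libraries. Of the 146 hairpins, 70 (47.9%) had more 5p counts. By rising 3p share miR-301a stood at place 28, miR-130b at 51 and miR-454 at 67. Shares between 10 and 90%, as in miR-130b and miR-454, were found in 50 of the 146 hairpins, while 49 lay under 10%, as miR-301a did, and 47 over 90%.

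Relatives with an offset seed, chosen by name, had the opposite balance of arms. Other families with a seed offset from that of miR-130 were not compared. The family of miR-148 and miR-152, which targets DNA methyltransferase messages among others, has the seed CAGUGCA, the letters of the miR-130 seed moved by 1 base. Its 3p arms took 94.0% of the counts in miR-148a, 99.0% in miR-148b and 98.1% in miR-152, with the libraries summed. The 3p arms of these relatives are shown for the offset of their seed:
miR-148a-3p: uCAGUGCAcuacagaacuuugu
miR-148b-3p: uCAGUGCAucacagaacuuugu
miR-152-3p: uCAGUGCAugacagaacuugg
Summed, they reached 9223 ± 47.5 CPM with entinostat and 8825 ± 186 CPM with DMSO (SD, n = 2), most of it from miR-148b-3p, while the 5 family 3p arms summed to 569.6 ± 30.03 CPM with entinostat and 594.1 ± 36.5 CPM with DMSO. The 4 family 5p arms summed to 1398 ± 79.3 CPM with entinostat and 1564 ± 114 CPM with DMSO. Singly, miR-152-3p had 580.4 ± 4.31 CPM with entinostat and 587 ± 43.5 CPM with DMSO, below miR-130b-5p. The human miRNAs miR-3666 and miR-4295, which carry the family seed in RefSeq, and miR-721, described in mouse, had no row in the count table.

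**Figure D3:**
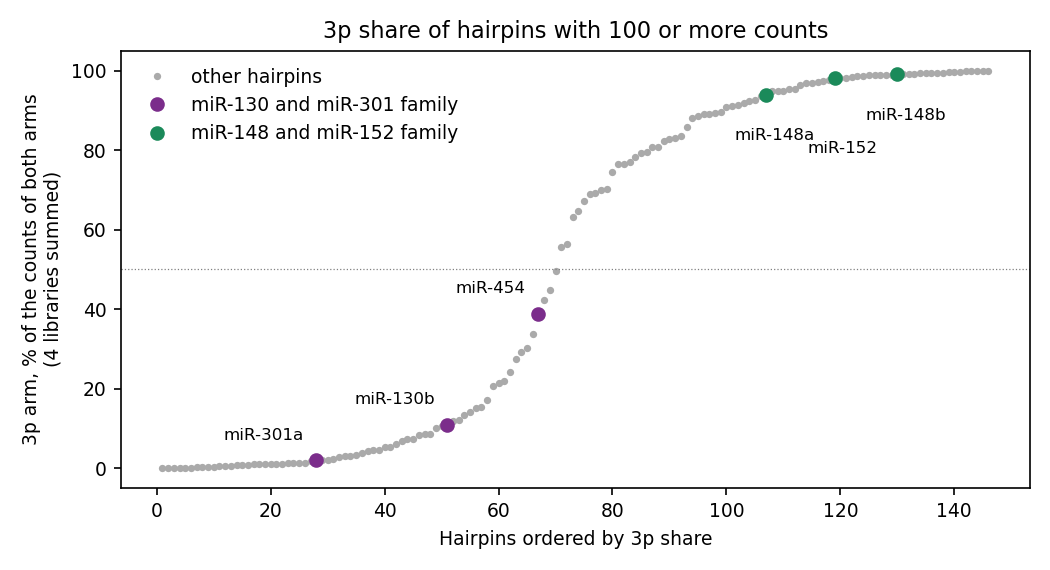
The 146 hairpins with both arms and 100 or more counts, ordered by 3p share (x axis), with that share over the 4 libraries in % on the y axis. The hairpins of the miR-130 and miR-301 family (purple) lie on the 5p side at 1.93, 10.8 and 38.8%, and those of miR-148a, miR-148b and miR-152 (green) at 94.0% or above.

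No member passed the test for a difference between the treatments. With edgeR's quasi-likelihood test, 0 of the 6 tested members had an adjusted p below 0.05, and so did 0 of all 401 tested miRNAs, a background of 0%. Unadjusted p fell below 0.05 for 0 members, against 27 (6.73%) of all tested miRNAs. DESeq2 and limma-voom also called 0. Whole cultures were sequenced, so fewer cells carrying a miRNA and less of it per cell cannot be told apart. A shift common to all miRNAs is removed by the scaling.

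For the leading arm miR-130b-5p, means were 1247 ± 82.0 CPM with entinostat and 1380.4 ± 85.8 CPM with DMSO (SD, n = 2). The log2 fold change, entinostat over DMSO, was -0.15 (SE 0.10, 95% interval -0.38 to 0.09, edgeR adjusted p = 0.640). As a fold this was 0.904, with an interval of 0.770 to 1.06. The log2 value was -0.22 without entinostat replicate 1, -0.22 without DMSO replicate 1 and -0.0825 without entinostat replicate 2. The 3p arm of the same hairpin, miR-130b-3p, had 162.7 ± 27.1 CPM against 151.5 ± 9.93 CPM. Its log2 fold change was 0.13 (-0.27 to 0.53, edgeR adjusted p = 0.859), which was -0.0734 without entinostat replicate 2.

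Of the other members, miR-454-5p had the lowest unadjusted p of the family, 0.128. Its means were 71.5 ± 0.425 CPM with entinostat and 93.8 ± 16.0 CPM with DMSO (SD, n = 2), and its log2 fold change was -0.37 (-0.86 to 0.13, edgeR adjusted p = 0.635). Leaving out DMSO replicate 1 moved it to -0.57 and leaving out DMSO replicate 2 to -0.23. For miR-454-3p the log2 fold change was 0.14 (-0.42 to 0.69, edgeR adjusted p = 0.892), and for miR-301a-5p it was -0.14 (-0.63 to 0.35, edgeR adjusted p = 0.876). Without DMSO replicate 1 the value for miR-301a-5p was -0.29, and without DMSO replicate 2 it was -0.06. The value for miR-130a-3p was -0.15 (-0.50 to 0.21, edgeR adjusted p = 0.796), from 344.9 ± 58.9 CPM with entinostat against 381.1 ± 37.9 CPM with DMSO. It was 0.0255 with entinostat replicate 2 left out and -0.33 with entinostat replicate 1 left out.

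All 6 intervals lay inside a 2-fold change in either direction, as did 73.6% of those of all tested miRNAs, and 3 lay inside 1.5-fold, against 51.6% of all. Of the 6 log2 fold changes, 4 were below 0 and 2 above, with a median of -0.14 beside 0.00466 over all tested miRNAs. Scaling by upper quartile factors put the median of all tested miRNAs at 0.12 and left the 6 signs as they were, but brought the values near 0 for miR-130b-5p (-0.0356), miR-130a-3p (-0.0347) and miR-301a-5p (-0.0231), with 0.24 for miR-130b-3p, 0.26 for miR-454-3p and -0.25 for miR-454-5p. The 3 tested 5p arms were all below 0, and 2 of the 3 tested 3p arms were above 0. Of all 401 tested miRNAs, 193 were below 0 and 208 above. That background was not split by arm, and a difference between arms was not tested. Both entinostat libraries were lower for 3 members, the same 5p arms, and higher for 1, miR-454-3p. These 4 of 6 members without overlap stand beside 40.6% of all tested miRNAs, 20% lower in both entinostat libraries and 20.7% higher.

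**Figure D4:**
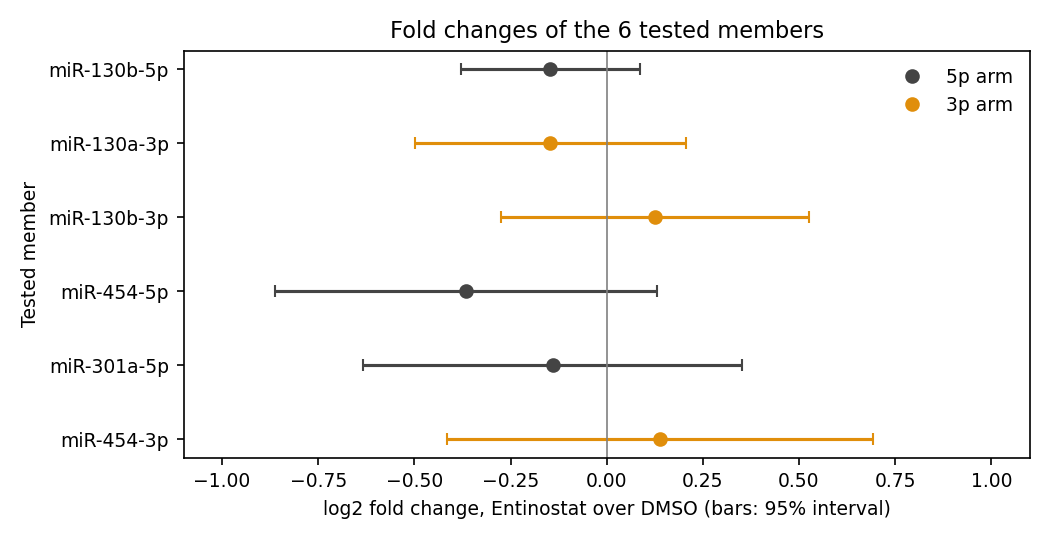
Log2 fold change, entinostat over DMSO (x axis), for each of the 6 tested members (y axis, ordered by mean level), with 95% intervals from the edgeR fit as bars, 5p arms in dark grey and 3p arms in orange. Every interval crosses 0, and the values run from -0.37 for miR-454-5p to 0.14 for miR-454-3p.

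Of the 5 tested arms of the offset-seed relatives, 0 passed the edgeR test at an adjusted p below 0.05. An unadjusted p below 0.05 was found for 1, against 27 (6.73%) of all 401 tested miRNAs. That arm was miR-148a-5p, with 128.8 and 125.2 CPM with entinostat, against 71.7 and 76.6 CPM with DMSO. Both entinostat libraries lay above both DMSO libraries, as they did for 20.7% of all tested miRNAs. Its log2 fold change was 0.78 (0.36 to 1.20, unadjusted p = 0.00257, edgeR adjusted p = 0.316). Of the settings run, only the edgeR likelihood ratio test put the adjusted p below 0.05, at 0.0194. The adjusted p was 0.289 with limma-voom, 0.999 with DESeq2 and 0.0973 with edgeR on upper quartile factors. The 3p share of miR-148a was 92.6 ± 0.283% with entinostat and 95.3 ± 0.0821% with DMSO (SD, n = 2, two-sided exact permutation p = 0.333, the lowest possible here). A lower 3p share in both entinostat libraries was found in 17.8% of the 146 hairpins. The most abundant arm, miR-148b-3p, had 7057 ± 54.0 CPM with entinostat and 6719 ± 43.2 CPM with DMSO (SD, n = 2), and its log2 fold change was 0.07 (-0.10 to 0.24, edgeR adjusted p = 0.796). The values were 0.06 for miR-148a-3p (-0.16 to 0.29), -0.01 for miR-152-3p (-0.27 to 0.24) and -0.13 for miR-148b-5p (-0.71 to 0.44).

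Among the 237 miRNAs of 100 CPM or more, the pattern over the 4 libraries most like that of miR-130b-5p was that of miR-493-5p, then miR-379-5p and miR-340-3p. Likeness was the root mean square difference of log2 CPM, each miRNA centred on its own mean, at 0.00953, 0.0118 and 0.0273, against a median of 0.144 over the miRNAs compared. The levels of miR-493-5p, a miRNA of the imprinted 14q32 region, were 712 and 643 CPM with entinostat, against 718 and 773 CPM with DMSO. With 4 libraries many patterns look alike, and no test was made.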

How the data were processed

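Total RNA went into small RNA libraries with New England Biolabs reagents, per the labels' protocols. The submitters' processing notes name bcl2fastq 2.18. For aligner, counter, annotation and build the sources used here give no entry. The authors deposited raw counts for 826 mature miRNA names in the 4 libraries. The authors' deposited CPM are counts over the column total with no composition factor, and entered alternatives only. Groups and replicate numbers came from the titles.

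Counts were TMM-scaled and tested over the whole table by quasi-likelihood in edgeR 4.0.16 (R 4.3.3), treatment being the only term. Rows were kept by filterByExpr (minimum count 10, minimum total 15), leaving 401, and a call needed a Benjamini-Hochberg adjusted p below 0.05. The common dispersion was 0.00648. Shares have exact 95% intervals. For a count of 0 the limit is 3 counts, taking a 0 to mean that no read was counted. Alternatives used DESeq2 1.42.0, limma 3.58.1, other scalings, filters, pseudocounts (1 and 0.5) and left-out libraries. Python 3.11.15 with SciPy 1.17.1 served for the rest.

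The members, lists and tests were chosen with earlier results of these data known. Named miRNAs were all members, seed relatives by name, the 2 neighbours in level above and below each tested member (printed for the leading member), and the 3 miRNAs most like the leading member. A further literature list is not reported here.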

Additional observations from a re-analysis of the deposited data

How the results depend on the processing

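The 0 calls over all tested miRNAs became 4 with the edgeR likelihood ratio test and ran from 0 to 5 when 1 library was left out, the 5 being without entinostat replicate 1. No member was called under any setting run, the lowest adjusted p of a member being 0.423, for miR-130a-3p without entinostat replicate 1. Each of the 6 log2 fold changes kept its sign in the other 12 alternatives (scalings, filters, tools, pseudocounts, the replicate block and the 5 most abundant miRNAs left out). With 1 library left out the range was -0.33 to 0.0255 for miR-130a-3p and -0.0734 to 0.26 for miR-130b-3p, which turned sign without entinostat replicate 2, and the lone library of a group is then assumed to vary like the others. The same step gave 3p share differences, entinostat minus DMSO, of -1.47 to 2.17 percentage points in miR-301a and -25.4 to 17.6 in miR-301b, where counts limit the precision, but 5.80 to 11.01 in miR-454, and -0.0298 to -0.00765 points for the family's summed share. For the seed relatives it gave log2 fold changes of -0.0161 to 0.1219 for miR-148a-3p, -0.4077 to 0.0622 for miR-148b-5p and -0.1034 to 0.0323 for miR-152-3p, which was 0.0999 with upper quartile factors. The family's summed share differed by -0.0324 points when the 5 most abundant miRNAs were left out, because the total is then smaller. Replicate numbers did not pair the libraries by any label, and with them as a replicate block 0 miRNAs were called and 25 had an unadjusted p under 0.05. The deviations of same-numbered libraries had a weak negative correlation (Pearson r = -0.135 across 237 miRNAs, which are not independent replicates), and crossed numbers were also tried after seeing the data, with 0 called and 32 at an unadjusted p under 0.05.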
